A study of Mus musculus with 5480 samples.

Results

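A set of 9 secreted adhesion proteins of the lung mesenchyme were followed across cell subtypes, ages and hyperoxia: fibronectin (Fn1), periostin (Postn), transforming growth factor beta induced protein (Tgfbi), tenascin C (Tnc), thrombospondin 1 and 2 (Thbs1, Thbs2), SPARC (Sparc), SPARC-like 1 (Sparcl1) and spondin 1 (Spon1). They were taken by name with earlier results of these data known, and all 9 were rows of the table of 18072 genes. Their counts of calls beside the share of all genes are therefore a description of chosen genes. The same holds for the gene lists followed beside them. Fibronectin is a structural glycoprotein that cells assemble into fibrils through integrins and on which other matrix proteins are laid down. Matricellular proteins are secreted into the same matrix but mainly alter how cells attach to it and how growth factors act there. They are typically made in growing or injured tissue, and in the developing lung tenascin C and periostin are known as products of the mesenchyme around forming alveoli, airways and vessels.

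The data were single mesenchymal cells of the mouse distal lung, sorted by flow cytometry into plates and sequenced with a Tn5 transposase method. There were 5 groups with 1 female and 1 male mouse each: normal air at embryonic day 18.5 (E18.5), postnatal day 1 (P1), P7 and P21, and hyperoxia (breathing raised oxygen) at P7. The 10 mice gave 5480 cells with 16 subtype labels of the submitters. Strain, oxygen level and length of exposure are not given in the sources used here, and the labels name no genetic change in any group. The mice were separate animals with 311 to 633 cells and 294154721 to 671766116 counted reads each, and a cell had a median of 774305 reads. No molecular identifiers were used, so reads are not independent molecules, and intervals on shares of cells cover counting error only.

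Most cells of the 2 hyperoxia mice were sequenced in runs that held no other mouse, so hyperoxia and run cannot be told apart. At all 4 ages in normal air most male cells came from a single run, whereas most female cells shared a run only between E18.5 and P1, so the difference of log2(rpm + 1) between the male mice is given beside each called change with age as its value within a run. Levels are reads-per-million values (rpm) relative to all counted reads, summed over the cells of a mouse and subtype with at least 10 cells, which gave 64 libraries. For tests, early and later subtypes of a lineage were joined into 6 classes (alveolar fibroblasts, adventitial fibroblasts, myofibroblasts, airway smooth muscle, vascular smooth muscle and pericytes). Most labels matched their markers: Wnt2 was high in the alveolar lineage, Serpinf1 and Pi16 in adventitial fibroblasts, Hhip in P21 airway smooth muscle, and Higd1b in pericytes. Tcf21 overlapped between lineages, with 219.3 to 531.4 rpm in P21 alveolar fibroblasts beside 159.1 to 977.9 rpm in early adventitial fibroblasts and 77.95 to 456.1 rpm in pericytes. The median of Pdgfra was lower in early alveolar fibroblasts (39.4 rpm) than in early adventitial fibroblasts (135.4 rpm) or myofibroblasts (235.0 rpm). Over the 50 class libraries the summed levels of 7 endothelial markers were 0.12 to 106.1 rpm and those of 7 immune markers 0 to 394.4 rpm. The 7 epithelial markers reached 1031 rpm in the female E18.5 alveolar library, which held 14 cells. In adventitial fibroblasts of hyperoxia mice 4 mesothelial markers reached 654.1 rpm and 4 platelet markers 146.4 rpm.

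RefSeq promoter windows (mouse build GRCm38.p6) were matched for 5 of the 9 genes, with 7 transcription starts in all. Of these, 3 windows are shown, of genes that fell from P7 to P21 in airway smooth muscle or adventitial fibroblasts. Tgfbi fell as well, but its window and that of the other Tnc start overlap annotated exons and are not printed, and of the 2 Postn windows the one with a motif match is shown. Each is the 250 bases before the start, written 5′ to 3′ on the strand of the gene, and capitals mark matches to the motifs searched. The Postn window lies at chr3:54360857-54361106 on the plus strand, before the second of 2 starts, and GENCODE M21 places no gene in it. The Tnc window lies at chr4:64047016-64047265 on the minus strand, before the first of 2 starts, where the other strand carries an intron of the noncoding gene 8030451A03Rik. The Thbs2 window lies at chr17:14694263-14694512 on the minus strand, with no annotated gene in it.
Postn: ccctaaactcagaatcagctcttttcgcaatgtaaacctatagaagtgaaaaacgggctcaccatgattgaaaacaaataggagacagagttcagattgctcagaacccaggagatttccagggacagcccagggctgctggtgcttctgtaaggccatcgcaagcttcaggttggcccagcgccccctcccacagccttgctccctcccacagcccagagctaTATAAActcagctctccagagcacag
Tnc: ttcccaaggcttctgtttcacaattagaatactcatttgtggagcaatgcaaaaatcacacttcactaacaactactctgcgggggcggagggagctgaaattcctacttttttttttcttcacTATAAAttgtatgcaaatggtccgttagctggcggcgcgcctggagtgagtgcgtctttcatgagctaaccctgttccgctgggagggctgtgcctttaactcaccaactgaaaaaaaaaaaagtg
Thbs2: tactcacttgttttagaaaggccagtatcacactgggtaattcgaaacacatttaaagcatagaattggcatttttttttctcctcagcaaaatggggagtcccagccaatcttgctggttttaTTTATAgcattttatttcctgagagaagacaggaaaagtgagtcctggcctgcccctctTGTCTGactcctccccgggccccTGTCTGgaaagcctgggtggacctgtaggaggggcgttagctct

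A total of 5 motifs were searched on both strands, and none overlapped another in these windows. The AP-1 motif was written TGANTCA. The SMAD box, to which the transcription factors of transforming growth factor beta signalling bind, was CAGACA. For TEAD factors, which act with YAP in the Hippo pathway, it was CATTCC. The TATA box, where the basal transcription machinery assembles, was TATAAA. The CArG box of serum response factor was the last of them. The Postn window held the TATA box 26 bases before the start, and the Tnc window held it 126 bases before its start. In the Thbs2 window the capitals are 2 SMAD boxes and 1 TATA box, all on the opposite strand. The Tgfbi window and the other Postn window held none of the 5 motifs, and the Sparc window held 1 SMAD box. The other Tnc window overlaps the one shown, and it held 1 SMAD box and the same TATA box. Among 32851 promoter windows of the same length, 12.4% held a TATA box, 17.1% a SMAD box, 12.6% a TEAD motif, 6.75% an AP-1 motif and 1.47% a CArG box. These matches describe the letters only.

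Subtype levels are described without a test, because the subtype labels come from clustering of the same cells. Fibronectin, the fibril-forming adhesion protein, was most abundant in the alveolar lineage. Its level was 4144 and 4264 rpm in early alveolar fibroblasts of the female and male mouse at P7, 3071 and 3021 rpm in fibroblast precursors at E18.5, and 2286 and 2684 rpm in alveolar fibroblasts at P21. Early alveolar fibroblasts at E18.5 (3223 and 4578 rpm) overlapped those at P7. Adventitial lineages held 645.1 to 1871 rpm. Vascular smooth muscle lay within that range at P7, with 1025 and 1345 rpm, and below it at P21, with 144.4 and 109.7 rpm. The E18.5 precursors of myofibroblasts and smooth muscle had 45.3 and 53.7 rpm, and P7 myofibroblasts 357.5 and 333.2 rpm. Pericytes at P21 had 0.763 and 0.115 rpm, the lowest in the data.

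Periostin and Tgfbi are fasciclin-domain proteins that bind integrins and collagen. Postn marked pericytes, in which it was 3120 and 4896 rpm at E18.5 and 12970 and 10520 rpm at P21. Shares of cells with a read are given after thinning each cell to 100000 reads, and every pericyte at E18.5, P1 and P7 had a Postn read, as did 140 of 141 at P21. Early adventitial fibroblasts at P7 in normal air followed with 2806 and 2588 rpm, above vascular smooth muscle of the same mice at 1837 and 1773 rpm. Myofibroblasts had 90.2 to 209.8 rpm, and alveolar fibroblasts at P21 had 0.310 and 0.231 rpm. Tgfbi was a gene of airway muscle and myofibroblasts instead. It was 9273 and 13670 rpm in early airway smooth muscle at P1, 9760 and 8164 rpm at P7, 4957 and 5966 rpm in the E18.5 contractile precursors and 5833 and 5721 rpm in P1 myofibroblasts. In pericytes no Tgfbi read was counted in any mouse at E18.5 or P1, and the 43 P1 pericytes allow a share of cells with a read of up to 8.20% (95% Wilson interval).

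Tenascin C, a large hexameric glycoprotein that modulates adhesion to fibronectin, was highest in myofibroblasts and early airway smooth muscle. Tnc was 1882 and 1794 rpm in P7 myofibroblasts and 1608 and 1361 rpm in P7 early airway smooth muscle, and the P1 early airway cells (1289 and 1522 rpm) overlapped the latter. P7 alveolar fibroblasts had 505.9 and 557.5 rpm, and the mean in vascular smooth muscle was lower, at 363.5 rpm at P7 and 84.4 rpm at P21. Adventitial fibroblasts at P21 had 0 rpm in the female and 37.2 rpm in the male, and pericytes never exceeded 33.0 rpm.

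Thrombospondins 1 and 2 are trimeric proteins that bind CD36, CD47 and matrix proteases, and thrombospondin 1 can activate latent transforming growth factor beta. Thbs1 was highest in P21 airway smooth muscle, at 5340 and 4418 rpm, and next in early airway smooth muscle at P1 (1799 and 1876 rpm) and P7 (1636 and 1314 rpm). Thbs2 never reached 1000 rpm. It was highest in early adventitial fibroblasts at P7 (727.1 and 747.6 rpm) and in P7 vascular smooth muscle, where the female had 942.3 rpm and the male 290.6 rpm. P1 and P7 pericytes had no Thbs2 read.

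SPARC and SPARC-like 1 are related collagen-binding proteins, and SPARC is needed for orderly collagen fibrils. Sparc was the most general gene of the set, above 1000 rpm in 63 of 64 libraries, and the exception was P21 striated muscle at 553.6 rpm. The highest levels were in P21 adventitial fibroblasts (22970 and 25100 rpm) and in P7 early adventitial fibroblasts (20490 and 18870 rpm in normal air). Sparcl1 peaked in pericytes at P21 (6411 and 4617 rpm), and pericytes at E18.5 and P1 had 2552 to 3860 rpm. Vascular smooth muscle at P21 (2774 and 1804 rpm), P21 alveolar fibroblasts (2447 and 2280 rpm) and the E18.5 contractile precursors (2048 and 2448 rpm) followed with overlapping values. Spondin 1, a secreted relative of the thrombospondins by its repeats, was 1343 and 1185 rpm in P21 alveolar fibroblasts, 555.8 and 566.9 rpm in P7 early alveolar fibroblasts and 326.7 to 802.8 rpm in vascular smooth muscle at P1 and P7, hyperoxia included. It was below 20 rpm in every library of myofibroblasts, airway smooth muscle and pericytes. Between genes, levels were compared only per kilobase of exon. On that scale the highest subtype mean was 6345 rpm per kilobase for Sparc, 3042 for Tgfbi, 1878 for Sparcl1, 1349 for Postn, 803.4 for Thbs1, 359.8 for Fn1, 236.4 for Tnc, 121.8 for Spon1 and 105.3 for Thbs2.

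**Figure D1:**
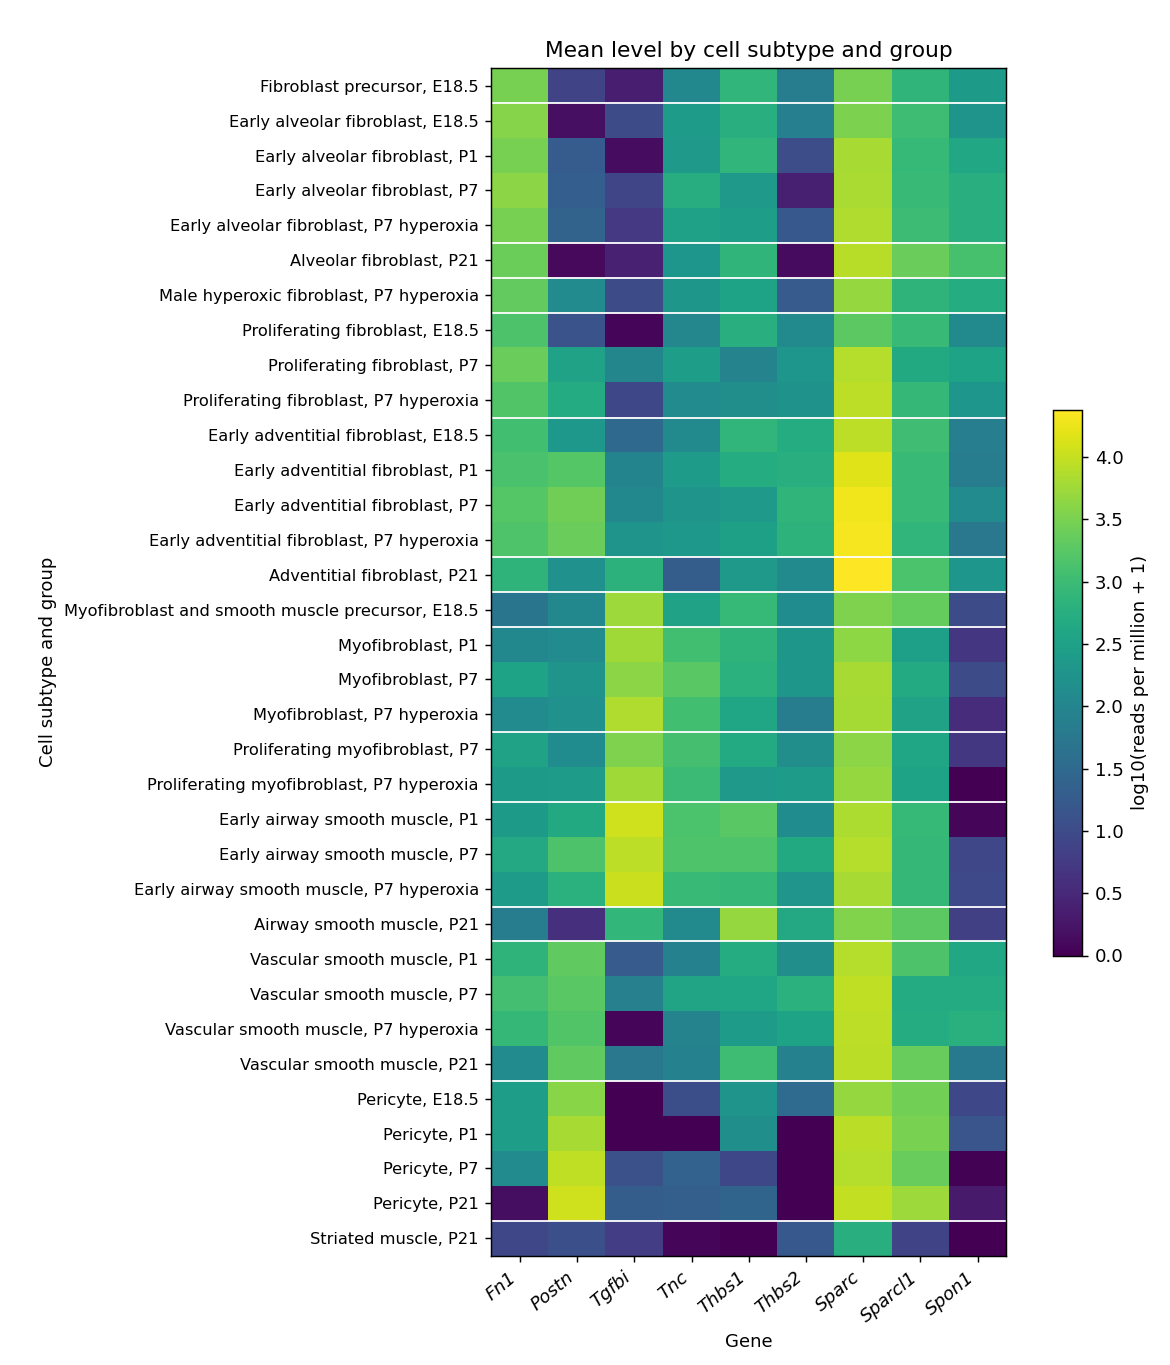
Mean level of each gene (columns) in each cell subtype and group (rows), as log10(rpm + 1), over the 1 or 2 mice with at least 10 cells. Sparc is bright in nearly every row, Tgfbi and Tnc in the rows of myofibroblasts and early airway smooth muscle, Postn in pericytes and Fn1 and Spon1 in the alveolar rows.

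The changes with age were tested in each class with edgeR's quasi-likelihood test on summed reads, with a term for sex and Benjamini-Hochberg adjustment over all genes, and a gene was called at an adjusted p under 0.05. From E18.5 to P1, none of 27 tests of the 9 genes in 3 classes was called. The edgeR test gave 7 of them an unadjusted p under 0.05, and DESeq2 called 4. Among all genes edgeR gave an unadjusted p under 0.05 to 3287 of 15670 in alveolar fibroblasts, 1411 of 15289 in adventitial fibroblasts and 642 of 11894 in pericytes. DESeq2 called 3624 of 13847, 775 of 14696 and 651 of 11432 there. Of all genes, 6.16% were called in alveolar fibroblasts, 0.17% in adventitial fibroblasts and 0.042% in pericytes. The alveolar share rests on E18.5 libraries of 14 and 24 cells, and the median log2 change of all genes there was 1.35. The gene nearest to the threshold was Postn in adventitial fibroblasts, at 137.9 and 293.9 rpm at E18.5 and 2503 and 902.5 rpm at P1. The log2 change was 2.84 (SE 0.52, edgeR adjusted p = 0.0900) and 1.61 between the males. Sparc was higher at P1 than at E18.5 in both mice of all 3 classes. Its log2 changes were 0.93 in alveolar fibroblasts, 0.70 in adventitial fibroblasts and 0.81 in pericytes, and none passed the adjusted test. The medians of all genes were 1.35, 0.16 and 0.07 in the same order, so in alveolar fibroblasts Sparc rose less than the median gene. How many of all genes were higher in both P1 mice was not counted, so the pattern is a description.

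From P1 to P7, none of 54 tests in 6 classes was called by edgeR, 12 had an unadjusted p under 0.05, and DESeq2 called 6. Of all genes tested, 0% were called in each of alveolar fibroblasts, adventitial fibroblasts, pericytes, myofibroblasts, airway smooth muscle and vascular smooth muscle, with 370 to 1072 genes a class at an unadjusted p under 0.05 and 216 to 693 called by DESeq2. Thbs2 in airway smooth muscle was 158.2 and 108.8 rpm at P1 and 510.0 and 413.3 rpm at P7. The groups did not overlap, but the log2 change of 1.76 (SE 0.36) had an edgeR adjusted p of 0.381. Postn in the same cells was 420.7 and 492.9 rpm at P1 and 1734 and 1167 rpm at P7, a log2 change of 1.63 (SE 0.36, edgeR adjusted p = 0.502). Thbs1 in pericytes was 120.9 and 182.3 rpm at P1 and 1.295 and 14.6 rpm at P7, and its log2 change of -4.72 (SE 1.27) was also not called. The summed level of 10 early response genes of cell dissociation, such as Fos and Jun, was 11430 to 12440 rpm in pericytes at P1 and 5756 to 7966 rpm at P7, and its part in the Thbs1 values was not tested.

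A joint fit over the 4 mice tested whether an effect differed between classes. For P1 to P7 this edgeR test called 2 of the 9 genes, against 0.172% of all genes. Tnc differed (adjusted p = 0.001817): its log2 change was 0.03 in airway smooth muscle, -0.48 in adventitial fibroblasts, 0.68 in myofibroblasts, 1.15 in alveolar fibroblasts, 2.24 in vascular smooth muscle and 9.46 in pericytes, where it went from 0.0769 and 0 rpm to 33.0 and 12.1 rpm. Spon1 differed as well (adjusted p = 0.002525), with 13.4 and 13.7 rpm in P1 pericytes and 0 and 0.152 rpm at P7 against 423.5 and 398.1 rpm and 555.8 and 566.9 rpm in alveolar fibroblasts. The log2 change of Spon1 was -7.60 in pericytes, 6.44 in airway smooth muscle (0.269 and 0.0755 rpm, then 6.12 and 9.19 rpm), 1.22 in myofibroblasts, 1.04 in adventitial fibroblasts, 0.41 in alveolar fibroblasts and 0.25 in vascular smooth muscle. The widest changes of both genes were in classes where the gene was near 0 at one of the ages. In pericytes 7 contractile markers summed to 1872 to 1972 rpm at P1 and 2754 to 6110 rpm at P7. In that order 7 immune markers were 0.315 to 13.07 rpm and 89.73 to 127.4 rpm, and 7 endothelial markers 1.23 to 5.725 rpm and 31.41 to 34.46 rpm. Fibroblast markers (750.8 to 1314 rpm, then 329.5 to 482.6 rpm) and mural markers (7462 to 7643 rpm, then 5573 to 7010 rpm) fell. Their part in both genes was not tested.

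**Figure D2:**
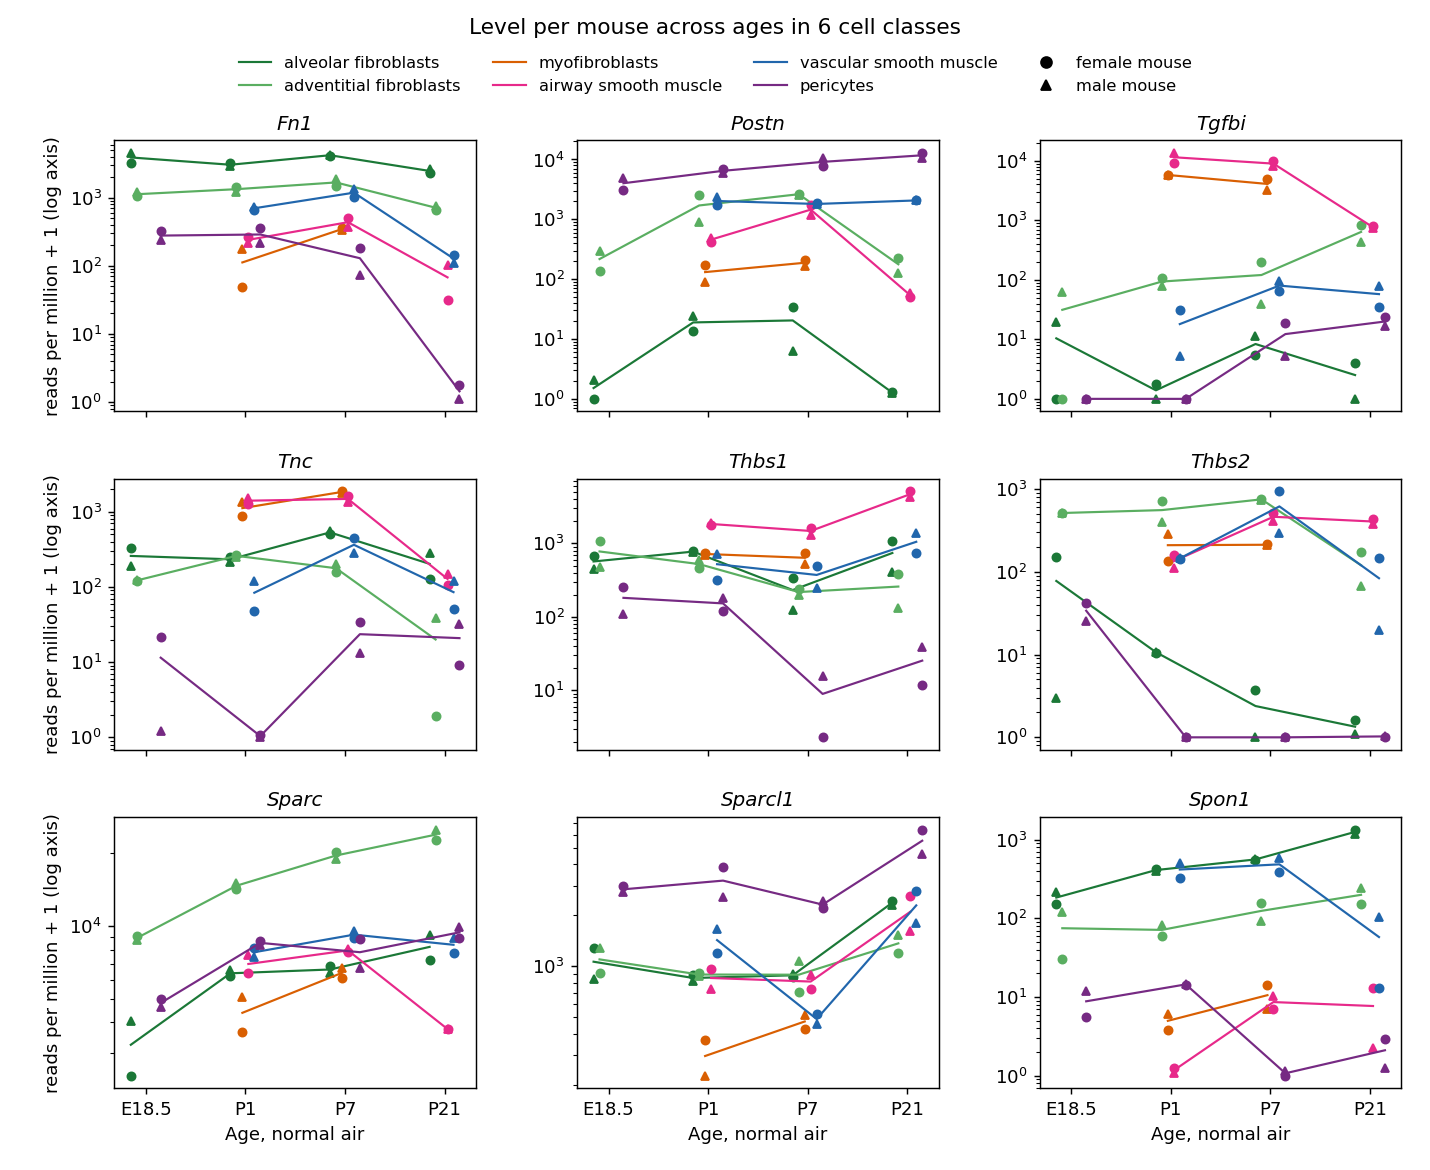
Level of each gene as rpm + 1 (log axis) against age in normal air, with circles for female and triangles for male mice and lines through the class means. Fn1 in pericytes and Postn in airway smooth muscle and adventitial fibroblasts drop at P21, while Sparcl1 is higher at P21 than at P7 in all 5 classes drawn at both ages.

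From P7 to P21, 7 of 45 tests were called: 6 falls and 1 rise. On simulated data the same fits also called unchanged genes, in airway smooth muscle, adventitial fibroblasts, vascular smooth muscle and myofibroblasts more often than the threshold implies. For this step, truly changed genes made up 6 of 7 simulated calls in airway smooth muscle and 15 of 21 in adventitial fibroblasts. They made up 1 of 3 in vascular smooth muscle and 1 of 1 in pericytes. In myofibroblasts, not compared over this step, they made up 39 of 47 from P1 to P7 and 37 of 45 for hyperoxia. Airway smooth muscle, the contractile sheath of the bronchi, held 4 of the 7 calls in the real data among its 9 genes, against 1.13% of all genes there. Postn was 1734 and 1167 rpm at P7 and 48.6 and 57.0 rpm at P21. Both P21 mice lay far below both P7 mice. The log2 change was -4.44 (SE 0.40, edgeR adjusted p = 0.00302) and -4.33 between the males. Tnc, at 1608 and 1361 rpm, was 104.3 and 149.5 rpm at P21. Its log2 change was -3.20 (SE 0.36, edgeR adjusted p = 0.00579) and -3.18 between the males. Tgfbi stood at 9760 and 8164 rpm and then at 787.4 and 737.6 rpm. Its log2 change was -3.20 (SE 0.35, edgeR adjusted p = 0.00563) and -3.47 between the males. Thbs1 went the other way, from 1636 and 1314 rpm to 5138 and 4225 rpm. Its log2 change was 2.02 (SE 0.32, edgeR adjusted p = 0.0194) and 1.68 between the males.

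The P21 airway class held 113 cells labelled airway smooth muscle and 6 still labelled early airway smooth muscle. In the former alone Postn was only 0.2 and 5.8 rpm, with a read in 3 of 112 thinned cells, against 122 of 138 early cells at P7, and with 1 subtype per class the log2 change was -9.05. The change of age therefore coincides with a change of label, and the share of cells and the level per cell both enter a summed level. The summed level of the 10 early response genes was 15910 and 12900 rpm in the airway class at P7 and 50530 and 35830 rpm at P21, and its part in the change of Thbs1 was not tested. The 7 contractile markers together were 23200 to 29570 rpm at P7 and 10680 to 12620 rpm at P21, and their part in the 4 changes was not tested. The Thbs1 call was lost on leaving out either P7 mouse kept in normal air (adjusted p up to 0.272) and with only the 4 mice compared. The Postn and Tgfbi calls were lost in a joint limma fit with 1 spread for all classes (highest adjusted p 0.426 and 0.603). The Tnc call held in all 19 alternatives. Outside the calls, Fn1 in airway smooth muscle was 497.2 and 375.2 rpm at P7 and 31.0 and 102.5 rpm at P21 (log2 change -2.43, SE 0.55, edgeR adjusted p = 0.0934).

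In adventitial fibroblasts, which sheathe airways and large vessels, 2 of 9 genes fell, against 0.124% of all genes. Postn was 2681 and 2571 rpm at P7 and 225.5 and 127.3 rpm at P21, a log2 change of -3.78 (SE 0.53, edgeR adjusted p = 0.0462) and -4.33 between the males. Thbs2 was 757.3 and 742.9 rpm and then 172.2 and 65.96 rpm, a log2 change of -2.62 (SE 0.38, edgeR adjusted p = 0.0462) and -3.47 between the males. The P7 and P21 mice did not overlap for either gene. Postn reads were found in 62 of 102 early adventitial cells at P7 and in 44 of 235 adventitial cells at P21. Both calls sit close to the threshold and ended without the cells of CD31 or CD45 sorts and without either P7 mouse, either hyperoxia mouse or the male P21 mouse, that of Postn also without the female P21 mouse, and that of Thbs2 also with only the 4 mice compared (highest adjusted p 0.253 for Postn and 0.220 for Thbs2). Mesothelial markers were 207.9 rpm in one P7 mouse and 0.065 rpm in the other, and at most 0.664 rpm at P21. The 7 contractile markers were 1731 to 2304 rpm at P7 and 443.4 to 669.1 rpm at P21, and the early response genes 10840 to 12900 rpm and then 20020 to 27830 rpm. The part of these 3 lists in the 2 falls was not tested.

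In pericytes, the mural cells of capillaries, Fn1 was the 1 gene of 9 that fell, against 0.0504% of all genes. It was 184.0 and 72.7 rpm at P7 and 0.763 and 0.115 rpm at P21, with no overlap. The log2 change was -8.36 (SE 0.98, edgeR adjusted p = 0.00547), and -6.05 between the males. A read was found in 16 of 55 thinned pericytes at P7 and in 2 of 141 at P21, so both groups held many cells without fibronectin reads. Markers of other cells also differed without overlap between P7 and P21 pericytes: 89.7 to 127.4 rpm against 7.82 to 28.3 rpm for 7 immune markers, 2754 to 6110 rpm against 491.2 to 948.7 rpm for 7 contractile markers and 13.2 to 104.3 rpm against 0.02 to 0.196 rpm for 2 markers of division. Their part in the fall of Fn1 was not tested. The call ended without the female or the male P21 mouse (adjusted p up to 0.192), with only the 4 mice compared and in the joint limma fit (adjusted p = 0.784). Postn in the same cells was 7690 and 10540 rpm at P7 and 12970 and 10520 rpm at P21, and its log2 change of 0.42 (SE 0.38) was within the spread.

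None of the 9 genes was called in alveolar fibroblasts or vascular smooth muscle by edgeR, against 0.0702% and 0.0886% of all genes. At an unadjusted edgeR p under 0.05 there were 4 and 6 of them, beside 1118 of 15670 and 895 of 12417 genes in all. The nearest was Fn1 in vascular smooth muscle, at 1025 and 1345 rpm at P7 and 144.4 and 109.7 rpm at P21 (log2 change -3.08, SE 0.49, edgeR adjusted p = 0.0546, males -3.60). Over the 45 tests DESeq2 called 18, while among all genes it called from 437 of 11663 in pericytes to 1163 of 12711 in airway smooth muscle. Sparcl1 had a higher level in both P21 mice than in both P7 mice in all 5 classes. The share of all genes that separated in this way from P7 to P21 was not counted, so the pattern is a description. Its log2 change was 1.73 (SE 0.27, edgeR adjusted p = 0.116) in alveolar fibroblasts, 2.38 (SE 0.45, edgeR adjusted p = 0.126) in vascular smooth muscle and 1.68 (SE 0.34, edgeR adjusted p = 0.0567) in airway smooth muscle. In pericytes it was 1.27 and in adventitial fibroblasts 0.80, and no class passed the threshold.

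The joint test called 1 of the 9 genes for a P7 to P21 change that differed between classes, against 0.199% of all genes. Postn (adjusted p = 0.005207) changed by -4.44 in airway smooth muscle and -3.78 in adventitial fibroblasts, by -5.86 in alveolar fibroblasts (33.5 and 5.34 rpm, then 0.310 and 0.231 rpm, not called there), and by 0.35 in vascular smooth muscle and 0.42 in pericytes on the log2 scale. Vascular smooth muscle had 1837 and 1773 rpm at P7 and 2067 rpm in both P21 mice. The change of Fn1 was just short of the threshold in this test (adjusted p = 0.0524). Spon1 in vascular smooth muscle (385.4 and 587.1 rpm, then 11.9 and 102.1 rpm) and in alveolar fibroblasts (555.8 and 566.9 rpm, then 1344 and 1172 rpm) had log2 changes of opposite sign, -3.34 and 1.47, but the difference did not pass (adjusted p = 0.709).

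**Figure D3:**
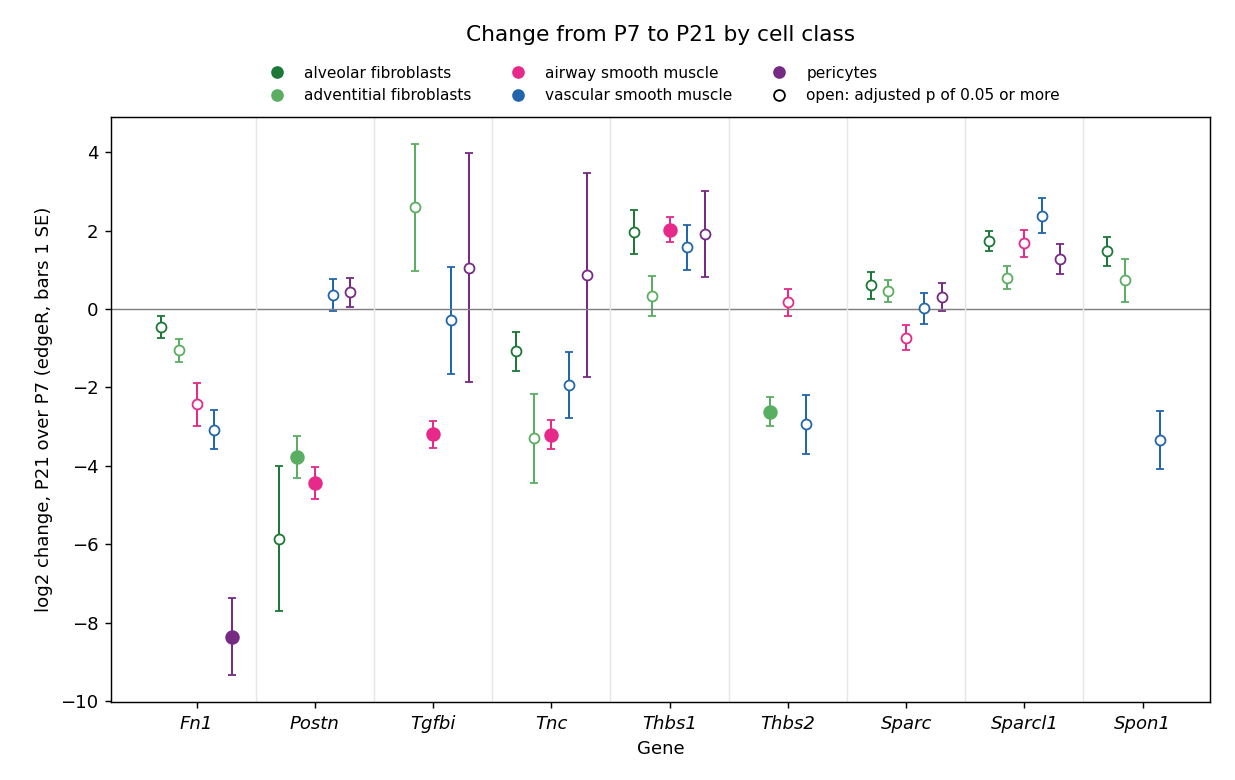
Log2 change from P7 to P21 by gene and class, with bars of 1 standard error, for genes with a mean of at least 10 rpm at either age. Filled points passed the adjusted threshold: the Fn1 point in pericytes is the lowest at -8.36, and the Thbs1 point in airway smooth muscle at 2.02 is the only filled point above 0.

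Hyperoxia at P7 called none of the 45 tests in 5 classes with edgeR, which gave 7 an unadjusted p under 0.05, while DESeq2 called 3 (falls of Thbs2 in myofibroblasts and in airway smooth muscle, and of Tgfbi in vascular smooth muscle). Of all genes, 0% passed in alveolar fibroblasts, adventitial fibroblasts, myofibroblasts, airway smooth muscle and vascular smooth muscle, with 319 to 1224 a class at an unadjusted p under 0.05 and 126 to 383 called by DESeq2. Pericytes could not be compared, since the hyperoxia mice gave 5 and 3 of them. In myofibroblasts, the contractile cells of the alveolar septa, 6 of 9 genes were lower in both hyperoxia mice than in both mice in normal air, and 22.6% of all genes were. In the same libraries 7 immune markers summed to 88.7 to 134.0 rpm in hyperoxia and 38.7 to 71.7 rpm in normal air, and 2 markers of division to 24.1 to 24.2 rpm and 47.9 to 143.7 rpm, and their part was not tested. Tnc was 1882 and 1794 rpm in normal air and 1173 and 1108 rpm in hyperoxia (log2 change -0.72, SE 0.36, edgeR adjusted p = 0.807). Thbs2 was 215.6 and 207.2 rpm and then 84.1 and 53.9 rpm (log2 change -1.64, SE 0.49, edgeR adjusted p = 0.656), while a read was found in 146 of 330 thinned cells in normal air and in 58 of 103 in hyperoxia. Fn1 was 357.5 and 333.2 rpm and then 164.0 and 91.2 rpm (log2 change -1.44, SE 0.65). Tgfbi was the 1 gene of the 9 that lay higher in both hyperoxia mice, beside 3226 of 13380 genes in all. It was at 7670 and 6796 rpm in hyperoxia against 4900 and 3263 rpm (log2 change 0.80, SE 0.38, edgeR adjusted p = 0.799).

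In airway smooth muscle 5 of 9 genes lay lower in both hyperoxia mice, against 19% of all genes. The early response genes were lower there too, at 8874 to 9614 rpm against 12900 to 15910 rpm, as were the 2 markers of division, at 0.142 to 1.66 rpm against 21.4 to 150.4 rpm, and their part was not tested. Postn was 1734 and 1167 rpm in normal air and 543.3 and 710.0 rpm in hyperoxia (log2 change -1.24, SE 0.35), and Thbs2 was 510.0 and 413.3 rpm and then 258.8 and 118.8 rpm (log2 change -1.39, SE 0.36). In vascular smooth muscle 3 of 9 lay lower, against 13.3%. There 7 epithelial markers summed to 98.7 to 101.9 rpm in hyperoxia and 33.7 to 62.0 rpm in normal air. In the same order 4 platelet markers summed to 34.54 to 59.15 rpm and 0 to 8.495 rpm. The 7 immune markers were 13.0 to 20.18 rpm and 2.227 to 12.24 rpm, and the early response genes 10510 to 11800 rpm and 9717 to 10190 rpm. The part of these genes was not tested. Tgfbi there was 63.9 and 94.1 rpm in normal air and 0.190 and 0.112 rpm in hyperoxia (log2 change -9.29, SE 1.99, unadjusted p = 0.000706, edgeR adjusted p = 1). Those reads came from few cells, since 7 of 54 thinned cells in normal air and 0 of 42 in hyperoxia had a read, which allows a share of up to 8.38% (95% Wilson interval). In alveolar fibroblasts 2 of 9 lay lower, against 16.2%, and in adventitial fibroblasts 1 of 9, against 14.1%. In adventitial fibroblasts 4 mesothelial markers summed to 574.9 to 654.1 rpm in hyperoxia and 0.065 to 207.9 rpm in normal air. In that order 7 contractile markers were 2896 to 3159 rpm and 1731 to 2304 rpm. The 5 mural markers were 226.9 to 271.4 rpm and 114.6 to 147.4 rpm, and 4 platelet markers 26.22 to 146.4 rpm and 15.46 to 15.75 rpm. The part of these markers was not tested. Higher in both hyperoxia mice lay 2 of 9 in alveolar fibroblasts, beside 4265 of 15670 genes in all. For adventitial fibroblasts (4781 of 15289 genes), airway smooth muscle (2324 of 13496) and vascular smooth muscle (2826 of 12417) it was 0 of 9. In alveolar fibroblasts 4 platelet markers summed to 47.05 to 53.45 rpm in hyperoxia and 9.366 to 19.59 rpm in normal air. In the same order 7 contractile markers were 1978 to 2342 rpm and 1783 to 1790 rpm. The 2 markers of division were 4.687 to 6.87 rpm and 16.62 to 20.1 rpm. The part of these markers was not tested. The 3 age and treatment comparisons that use the P7 mice in normal air share those libraries. No gene of the 9 had a hyperoxia effect that differed between classes with edgeR (0.106% of all genes did). DESeq2 called 2 in that test, beside 874 of 13214 genes in all. At an unadjusted edgeR p under 0.05 there were 5 of the 9, beside 1225 of 16008 genes, with Tgfbi nearest (adjusted p = 0.0960).

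**Figure D4:**
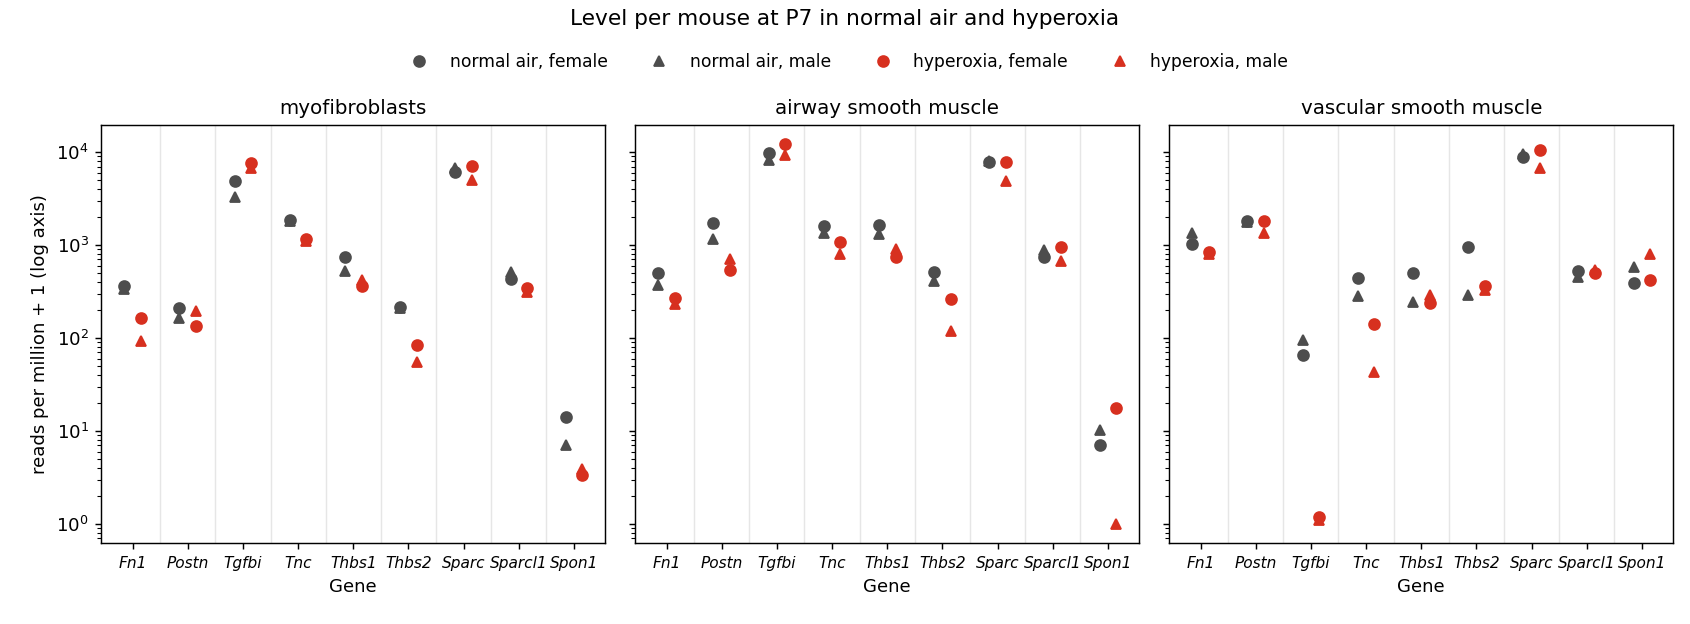
Level per mouse at P7 as rpm + 1 (log axis) for normal air (grey) and hyperoxia (red) in 3 contractile classes, with circles for females and triangles for males. Tnc, Thbs2 and Fn1 sit lower in both hyperoxia mice in myofibroblasts and airway smooth muscle, and Tgfbi in vascular smooth muscle is near 0 in hyperoxia.

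Other matricellular and adhesive matrix genes were followed as a list of 29, of which 27 were in the table. In airway smooth muscle from P7 to P21, 1 of 18 tested was called, against 1.13% of all genes, a fall of Wisp1, a CCN family member, from 105.1 and 89.0 rpm to no read in either mouse, at least 3381-fold lower against a floor of 3 reads over the group (edgeR adjusted p = 0.00306). The list's median log2 change was -0.70, beside -0.09 for all genes and -1.38 for the 9 genes. In vascular smooth muscle 1 of 19 was called, against 0.0886% of all genes. It was a fall of fibulin 2 (Fbln2) from 46.2 and 278.8 rpm to no read, at least 2323-fold lower (edgeR adjusted p = 0.0441). On simulated data only 1 of the 3 calls in that class and step was of a changed gene. In alveolar fibroblasts from E18.5 to P1, 2 of 25 were called, near the 6.16% of all genes there. Thbs3 went from no read to 48.9 and 55.1 rpm, at least 294.2-fold higher, and Spon2 from 0.640 and 0 rpm to 241.9 and 165.4 rpm (both edgeR adjusted p = 0.0284), in the comparison whose median over all genes was 1.35. No other class and age step called a gene of this list, and neither did hyperoxia, where 9 tests over 5 classes had an unadjusted edgeR p under 0.05.

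Receptors were followed as 16 integrin subunits, syndecans and thrombospondin receptors. In airway smooth muscle from P7 to P21, syndecan 4 (Sdc4), a fibronectin coreceptor, rose from 176.0 and 276.0 rpm to 1111 and 1783 rpm (log2 change 3.03, SE 0.34, edgeR adjusted p = 0.00563). Integrin alpha 9 (Itga9), which pairs with beta 1 to bind tenascin C, fell from 237.6 and 365.0 rpm to 49.4 and 76.9 rpm (log2 change -1.90, SE 0.36, edgeR adjusted p = 0.0476). The calls there were this 1 rise and 1 fall among the 14 receptors tested, against 1.13% of all genes. The median of the 14 receptors was -0.51. The early response genes and contractile markers also differed over this step, as given above, and their part in both changes was not tested. Integrin alpha 1 (Itga1), a collagen receptor subunit, fell in alveolar fibroblasts from E18.5 to P1. It went from 407.2 and 314.9 rpm to 88.9 and 58.2 rpm (log2 change -2.33, SE 0.54, edgeR adjusted p = 0.0473). This was the 1 call among 16 receptors, near the 6.16% of all genes. The E18.5 libraries held 14 and 24 cells, and the median log2 change of all genes was 1.35. At E18.5 epithelial markers reached 1031 rpm there and immune markers 394.4 rpm, and their part was not tested. No receptor was called in the other class comparisons.

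Genes with the most similar pattern were ranked by Pearson correlation of log2(rpm + 1) over the 64 libraries, among 12297 genes. The libraries share mice, and large differences between subtypes weigh most, so the values are a description. Among the closest matches were Lrrc17 (r = 0.845) and Mfap4 (0.808) for Fn1, and Galnt18 (0.793), Galnt16 (0.761) and Axl (0.753) for Postn. Tgfbi was most like Plxna4 (0.878), Sema3c (0.874) and Fgf18 (0.862), and Tnc most like Myh10 (0.777), Serpine2 (0.756) and Net1 (0.751). The thrombospondins had Cyr61 (0.766), Nupr1 (0.760) and Btg2 (0.745) for Thbs1, and Map1b (0.776), Scara3 (0.768) and Cdc42ep3 (0.768) for Thbs2. Sparc was nearest to Col1a2 (0.771), Cd63-ps (0.768) and Fcgrt (0.734), and the second of these is named as a pseudogene whose reads may be shared with Cd63. Sparcl1 was nearest to Lama4 (0.876), Diaph2 (0.784) and Jak1 (0.759), and Spon1 to Vegfd (0.833), Vcam1 (0.825) and Limch1 (0.819). Among the 9 genes themselves, Fn1 and Spon1 were the most alike (r = 0.763), followed by Tnc and Tgfbi (0.564), and Tgfbi and Spon1 were the most unlike (-0.545).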

How the data were processed

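The authors deposited 1 table of whole-number read counts per gene and cell, with subtype, mouse, plate and run labels. Per the submitters' processing notes, STAR 2.5.2b and HTSeq 0.10 were used and the named build is GRCh38, a human one. The libraries are labelled mouse, so no coordinate from these notes was used. The members and gene lists were chosen with earlier results of these data known. Counts were summed over the cells of a mouse and class (at least 10 cells). They were fitted in edgeR 4.0.16 (R 4.3.3) with TMM scaling, its filter on low counts, a quasi-likelihood F test and a term for sex, which pairs mice of the same sex across groups. Summed libraries held 3123998 to 380641721 reads. Each fit used 6 to 10 libraries with 2 to 4 residual degrees of freedom. DESeq2 1.42.0, limma 3.58.1, other scalings and filters, cell choices and leave-one-out fits were alternatives. Effects of age or hyperoxia were compared between classes in 1 joint edgeR fit with the mouse as a block. Named are the 9 genes in every comparison, the called genes of the family and receptor lists (up to 4 a list and comparison), and the 3 genes with the highest Pearson r to each of the 9, of which 1 is not reported here. Shares of cells used cells thinned to 100000 reads (168 shallower cells were left out) with 95% Wilson intervals. Gene lengths are unions of GENCODE M21 exons. The edgeR fits were tested on simulated data. Within classes, median fold changes mostly came back near their true size. With 2 mice a group only a minority of the changed genes was called, and none in some classes or in the joint fit, so a missed threshold says little about a gene, and some calls were of unchanged genes. A planned comparison of protein sequences was not made, as no protein table was used here. Precursors, proliferating subtypes, male hyperoxic fibroblasts and striated muscle belong to none of the 6 classes and entered no test.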

Additional observations from a re-analysis of the deposited data

Results flagged for a closer look

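A difference between classes in the same age step drew attention to 3 results, each from the joint edgeR fit with Benjamini-Hochberg adjustment over all genes. The change of Tnc from P1 to P7 differed among 6 classes (adjusted p = 0.001817). The change of Spon1 over the same step also differed among the 6 classes (adjusted p = 0.002525). The change of Postn from P7 to P21 differed among 5 classes (adjusted p = 0.005207), and the log2 change was -4.44 in airway smooth muscle, -3.78 in adventitial fibroblasts, -5.86 in alveolar fibroblasts, 0.42 in pericytes and 0.35 in vascular smooth muscle. Of these Postn changes, only those in airway smooth muscle and adventitial fibroblasts passed the test within their class. The changes of Tnc and Spon1 from P1 to P7 passed it in no class.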

How the results depend on the processing

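Each setting was changed alone, except that the joint limma fit changed the tool and pooled the classes together. Only the 50 log2 changes with an unadjusted p under 0.05 in the main edgeR fits were followed under the alternatives. None of these turned its sign, which such a choice of changes favours, and the signs of the others were not compared. For E18.5 to P1 the number of member tests called, 0, became 4 with DESeq2, 1 in the joint limma fit, 1 without a filter on low counts, and 0 to 4 when a mouse was left out (4 without the male E18.5 mouse, 1 without the male P1 mouse). For P1 to P7 it went from 0 to 6 with DESeq2, 5 with limma and 0 to 1 on leaving out a mouse (1 without the male P1 mouse). For P7 to P21 it went from 7 to 18 with DESeq2, 14 with limma, 12 without the filter, and 4 to 8 on leaving out a mouse, with 4 without the female or the male P7 mouse in normal air. For hyperoxia it went from 0 to 3 with DESeq2, 4 with limma and 0 to 2 on leaving out a mouse (1 without the female and 2 without the male P1 mouse, which share the estimate of spread). Without the replicate block (no term for sex, by which mice of the same sex were paired across groups) the counts were 1, 0, 10 and 0. Of the tests between classes, that from P1 to P7 gave 2 and, on leaving out a mouse, 0 to 3 (1 without the female P1 mouse, 0 without the female P7 or the male P1 mouse and 3 without the male P7 mouse). From P7 to P21 it gave 1, with 2 by DESeq2, 2 with equal weight of cells, 3 with library totals and 0 to 1 on leaving out a mouse (0 without either P21 mouse). For hyperoxia it gave 0, with 2 by DESeq2, 1 with equal weight of cells and 0 to 2 on leaving out a mouse (2 if the P7 female in normal air was dropped, 1 if the male was). The cause was not tested. With library totals in place of TMM the median log2 change of all genes from P7 to P21 moved from -0.09 to -0.44 in airway smooth muscle. Each group held 2 mice, which limits the precision of every test.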
